A study of Mus musculus with 4 samples.

Results

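Open chromatin around 10 genes that govern entry into the cell cycle was described in 4 ATAC-seq peak lists of mouse thymocytes. The genes were the D-type cyclins Ccnd2 and Ccnd3, their kinases Cdk4 and Cdk6, the growth regulator Mycn, the cyclin Ccne1, the transcription factor E2f2, the phosphatase Cdc25a, and the kinase inhibitors Cdkn1a and Cdkn1b. Every peak whose midpoint lay inside the mm10 span of a member gene, or within 50 kb of either end of it, was taken. Overlapping peaks of the 4 lists were merged into regions, which gave 97 regions around the 10 genes, of 107621 regions in the genome, and 10 of 21887 protein-coding genes. A region was called gene-end when its midpoint lay 1 kb or less from an end of the member's span, and distal otherwise. By this rule 10 regions were gene-end and 87 were distal.

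ATAC-seq uses a transposase to insert adapters into accessible DNA. Cells came from thymi of C57BL/6J mice, wild type and 5 to 7 weeks old, and were processed directly after sorting. The labels describe the material as nucleosome-free chromatin. The DN group (2 samples, DN 1 and DN 2) held CD4-CD8- double negative cells sorted as CD25+ with CD44 either absent or present. The DP group (2 samples, DP 1 and DP 2) held CD4+CD8+ double positive cells. Whether DN 1 and DN 2, or DP 1 and DP 2, derive from different mice is not stated in the labels, and their spread may be only technical. With 2 samples against 2, an exact two-sided permutation test cannot give a p below 0.333, so no single value can pass that test, and the values are given as descriptions.

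A resting cell enters division when D-type cyclins bind CDK4 or CDK6 and phosphorylate the retinoblastoma protein, which releases E2F factors. E2F factors switch on cyclin E and the genes of DNA replication, and CDC25A removes inhibitory phosphates from the cyclin-dependent kinases. The inhibitors p21 (Cdkn1a) and p27 (Cdkn1b) hold these kinases back. In the thymus, CD25+ DN cells that pass the pre-T cell receptor checkpoint divide rapidly, cyclin D3 is known to be needed for that burst, and most DP cells have then left the cycle.

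The 4 lists held 38808 (DN 1), 33131 (DN 2), 39718 (DP 1) and 70385 (DP 2) peaks. No reads are counted in them and the depth is unknown, so an accessible site that got too few reads looks the same as a closed site. Among 6 markers of DP cells, 1 in each DN list and 5 in each DP list had a gene-end peak. Among 6 markers of CD25+ DN cells the numbers were 4 in DN 1, 0 in DN 2, 2 in DP 1 and 5 in DP 2, so these markers did not set the DN lists apart. For 6 general T cell genes they were 1 and 2 in DN against 5 and 6 in DP. Markers of other cells, 6 of each type, had a gene-end peak in 1 to 2 (B cell), 1 to 3 (myeloid), 1 to 3 (NK), 1 (erythroid) and 0 (stromal) cases per list. Counted over windows of 50 kb, DP markers (22 and 17 in DN, 87 and 88 in DP) and T cell genes (17 and 5, 74 and 67) had more peaks in both DP lists. So did the markers of CD25+ DN cells (23 and 4, 42 and 44). Peaks around B cell (27 and 11, 36 and 45), myeloid (13 and 7, 19 and 14), erythroid (10 and 5, 14 and 21) and stromal markers (12 and 2, 21 and 23) were also more numerous in both DP lists. Those around NK markers overlapped (31 and 19, 30 and 41). The part of other cells in the results was not tested.

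The starts of these genes differed in which lists held a peak over them. RefSeq lists 12 starts for 9 of the 10 members (build GRCm38, the same as mm10). The windows from 250 bases before to 50 bases after 7 of these starts are printed to show starts of each kind: DN lists alone at Mycn, DP lists alone at Cdk6, the inner Ccnd3 start and the inner E2f2 start, no list at the outer E2f2 start, and all 4 lists at Cdk4 and Cdc25a. Capitals mark matches on either strand to a motif of E2F type (GCGGGAA, the variant GCGCGAA, or the variant GCGCCAA), or to the E-box CACGTG that MYC family proteins bind. Sequences run 5′ to 3′ on the strand of the gene, as RefSeq gives them.
Mycn: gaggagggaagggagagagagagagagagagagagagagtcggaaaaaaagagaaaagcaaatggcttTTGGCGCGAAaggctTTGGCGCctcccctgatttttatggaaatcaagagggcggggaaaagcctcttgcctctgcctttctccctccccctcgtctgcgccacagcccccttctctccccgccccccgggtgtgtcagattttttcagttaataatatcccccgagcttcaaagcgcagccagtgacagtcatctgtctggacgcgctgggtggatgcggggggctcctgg
Cdk6: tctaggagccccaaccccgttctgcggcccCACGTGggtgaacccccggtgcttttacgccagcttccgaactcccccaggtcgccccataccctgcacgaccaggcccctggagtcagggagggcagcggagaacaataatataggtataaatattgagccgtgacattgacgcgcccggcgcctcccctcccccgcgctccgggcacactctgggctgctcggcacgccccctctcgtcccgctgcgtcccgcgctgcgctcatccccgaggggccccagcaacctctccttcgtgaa
Ccnd3 inner start: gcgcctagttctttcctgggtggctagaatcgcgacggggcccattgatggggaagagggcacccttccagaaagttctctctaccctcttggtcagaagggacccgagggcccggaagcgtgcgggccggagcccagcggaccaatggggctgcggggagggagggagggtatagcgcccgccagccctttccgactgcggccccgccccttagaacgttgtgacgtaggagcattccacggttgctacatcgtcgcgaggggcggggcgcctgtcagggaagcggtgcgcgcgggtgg
E2f2 outer start: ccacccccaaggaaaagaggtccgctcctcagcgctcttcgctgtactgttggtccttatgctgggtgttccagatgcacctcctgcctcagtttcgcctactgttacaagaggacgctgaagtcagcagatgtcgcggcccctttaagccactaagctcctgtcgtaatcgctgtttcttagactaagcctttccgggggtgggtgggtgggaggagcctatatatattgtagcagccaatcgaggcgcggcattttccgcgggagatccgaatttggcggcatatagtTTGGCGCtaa
E2f2 inner start: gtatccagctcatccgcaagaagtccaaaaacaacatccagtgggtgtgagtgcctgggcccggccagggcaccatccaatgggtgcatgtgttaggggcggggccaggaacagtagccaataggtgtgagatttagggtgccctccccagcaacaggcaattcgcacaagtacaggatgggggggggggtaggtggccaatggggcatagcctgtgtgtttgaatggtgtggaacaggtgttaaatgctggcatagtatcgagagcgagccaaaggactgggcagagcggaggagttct
Cdk4: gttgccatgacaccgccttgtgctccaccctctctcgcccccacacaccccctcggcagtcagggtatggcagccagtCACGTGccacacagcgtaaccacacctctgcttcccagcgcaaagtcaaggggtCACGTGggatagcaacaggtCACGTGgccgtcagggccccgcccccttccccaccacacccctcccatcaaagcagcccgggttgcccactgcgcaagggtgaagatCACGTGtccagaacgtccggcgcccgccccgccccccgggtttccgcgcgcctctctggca
Cdc25a: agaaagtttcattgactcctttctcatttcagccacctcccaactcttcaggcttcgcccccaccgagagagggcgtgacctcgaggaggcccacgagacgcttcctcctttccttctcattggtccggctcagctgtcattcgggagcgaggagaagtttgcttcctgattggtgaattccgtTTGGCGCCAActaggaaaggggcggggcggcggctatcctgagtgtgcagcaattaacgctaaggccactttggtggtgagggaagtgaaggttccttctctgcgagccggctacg

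These windows lie at chr12:12941787-12942086 (Mycn, minus strand), chr5:3343643-3343942 (Cdk6), chr17:47593217-47593516 (Ccnd3), chr4:136172024-136172323 and chr4:136180532-136180831 (E2f2), chr10:127063285-127063584 (Cdk4) and chr9:109875329-109875628 (Cdc25a), all on the plus strand except Mycn. Cdk4 held 4 matches to CACGTG, with first bases at -172, -118, -98 and -11 from the start. Of 32851 RefSeq promoters, 7.15% held at least 1 such match and 8 promoters (0.0244%) held 4 or more. Cdk6 held 1, at -220. An E2F-type match was present in 8.07% of all promoters and in 3 of the printed windows. Mycn held GCGCCAA at -182 and -167 and GCGCGAA at -179, of which the matches at -182 and -179 overlap. Cdc25a held GCGCCAA at -66 and -63, which overlap. The outer E2f2 start held GCGCCAA at 40, just past the start. Neither motif kind was found in the windows printed for the inner Ccnd3 and E2f2 starts, which says only that these letters are not in these windows. The inner E2f2 window held 3 matches to the NF-Y motif CCAAT, of which 37.4% of all promoters held at least 1. The printed Cdc25a window held 2, and those of the inner Ccnd3 and outer E2f2 starts held 1 each. Matches are descriptions of the letters, not sites of binding.

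**Figure D1:**
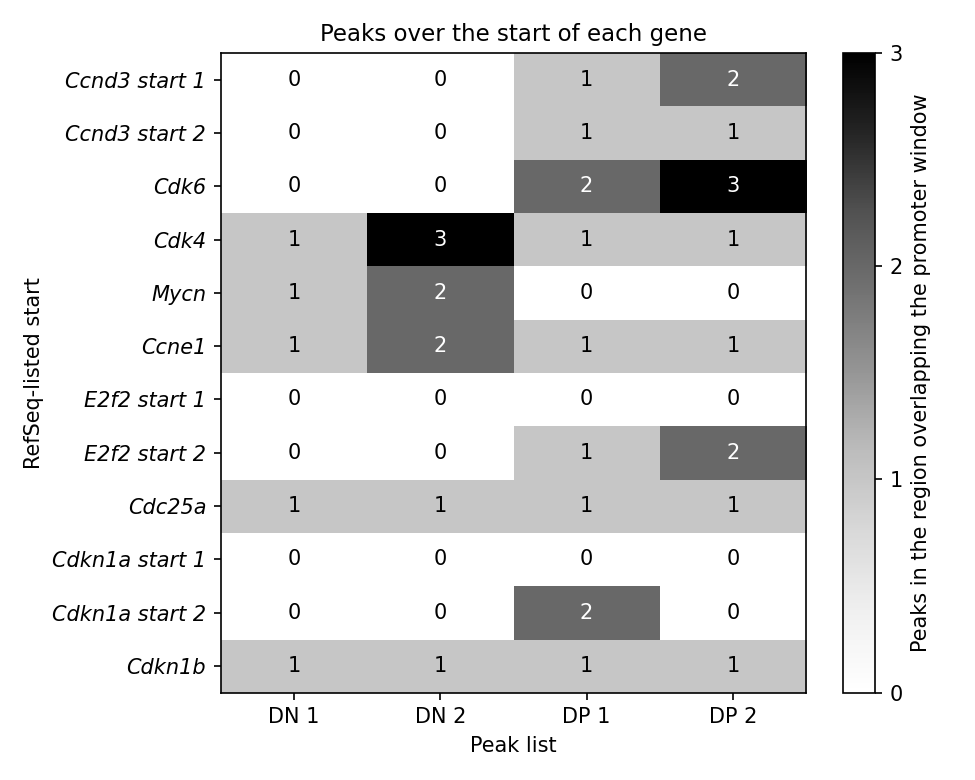
Number of peaks in each of the 4 lists (columns) in the merged region that overlaps each of the 12 RefSeq-listed promoter windows of 9 member genes (rows, start 1 being the outer one), shaded from 0 to 3. Cdk4, Ccne1, Cdc25a and Cdkn1b had a peak in every list, Mycn in the DN lists alone, and both Ccnd3 starts, Cdk6 and the inner E2f2 start in the DP lists alone.

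Around the whole set, DN 1 held 42 peaks, DN 2 held 23, DP 1 held 76 and DP 2 held 92. At the ends of the spans the 4 lists held 7, 11, 10 and 8 peaks, so the DN and DP lists overlapped there. The distance between the groups lay in the peaks called distal, with 35 and 12 in DN against 66 and 84 in DP lists. Distal peaks took in those over starts inside a span. DN 1, DN 2, DP 1 and DP 2 held 0, 0, 1 and 1 peaks at the inner Ccnd3 start and 0, 0, 2 and 3 at the Cdk6 start. They held 0, 0, 1 and 2 at the inner E2f2 start and 0, 0, 2 and 0 at the inner Cdkn1a start. The gene-end counts thus leave these starts out. Both DP lists held more peaks than both DN lists at 9 of the 10 genes, all but Mycn. The same was true of 41.8% of all 21887 protein-coding genes with windows of the same rule, of 44.7% of the 20489 genes with any peak, and no member had more peaks in both DN lists (3.60% of all genes). The lists differ in length, so the counts were also set against each list's total. Per 10000 peaks of a list, 10.8 and 6.94 member peaks in DN stood against 19.1 and 13.1 in DP. On this scale both DP lists exceeded both DN lists at 5 members (Ccnd2, Ccnd3, Cdk4, E2f2 and Cdkn1a) and at 29.6% of all genes. With every list limited to the length of the shortest, they did so at 7 members, without Mycn, Ccne1 and Cdc25a, and at 35.6% of all genes. With flanks of 10 kb it was 5 members (Ccnd2, Ccnd3, Cdk6, Ccne1 and E2f2) and 27.0% of all genes. Set against the DN list of the same number, the DP list was higher at 9 members for both numbers, and at 46.0% of all genes. This rule is looser than the rule over all 4 lists, so the same 9 had to pass it and only Mycn could have been added. Without DN 1, only DN 2, the shortest list, stood for DN, which is a looser rule for every gene. Mycn then joined the others and all 10 members were higher in DP, but the share of all genes was not counted for this setting. The median DP minus DN difference was 4 peaks over the members and 1.5 over all genes. In such bulk samples, fewer cells with an open site and a less open site in each cell cannot be told apart.

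**Figure D2:**
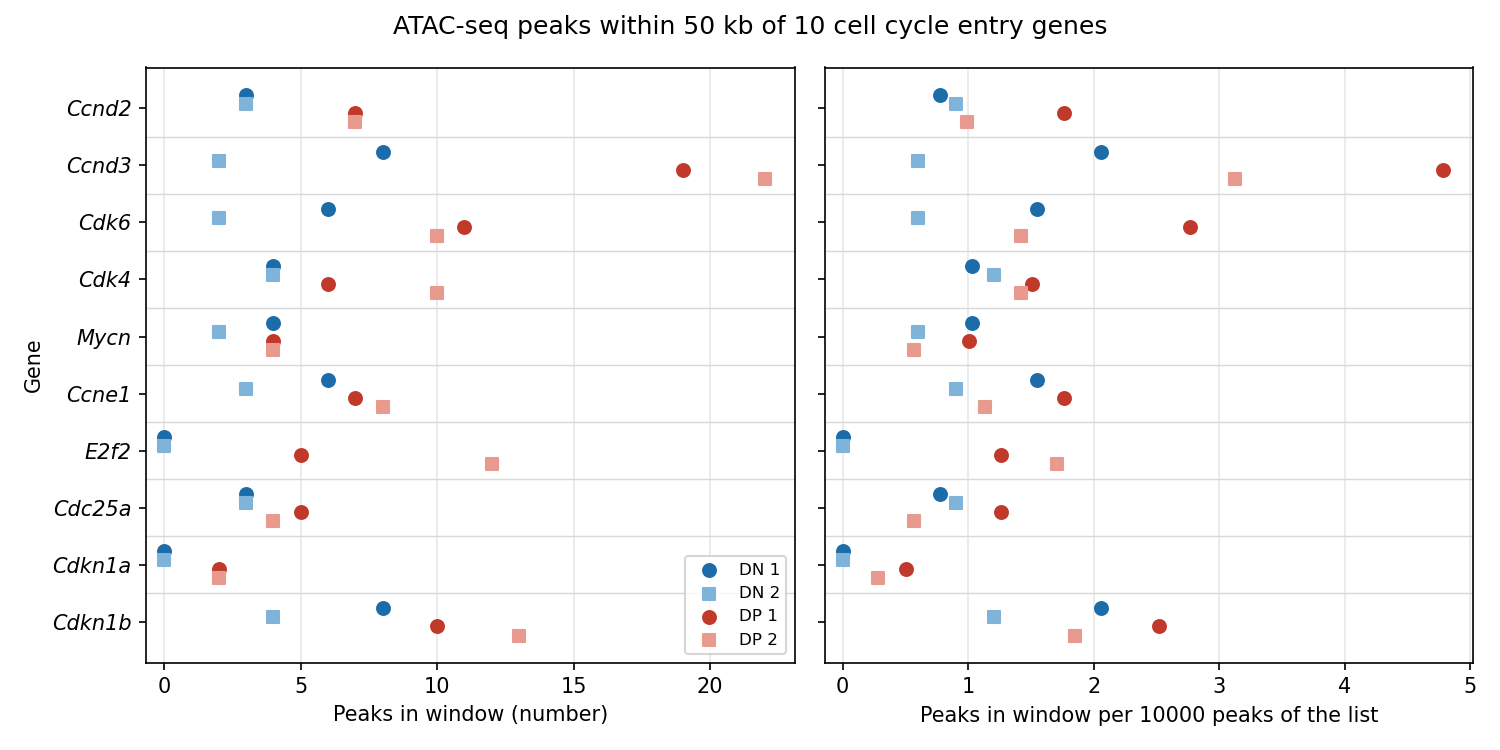
Peaks within 50 kb of each of the 10 genes (rows) in the DN lists (blue) and DP lists (red), as numbers on the left and per 10000 peaks of the list on the right; each point is 1 list. Ccnd3 reached 19 and 22 peaks in the DP lists, E2f2 had 0 in both DN lists, and Mycn, Ccne1, Cdk6, Cdc25a and Cdkn1b overlapped between groups once counts were scaled to list length.

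Ccnd3 (chromosome 17, 47505051 to 47599689), which encodes cyclin D3, carried the most peaks. DN 1 held 8 peaks and DN 2 held 2, while DP 1 held 19 and DP 2 held 22. Both DP lists stood far above both DN lists, by 15.5 peaks on average, and they did so per 10000 peaks as well (2.06 and 0.604 against 4.78 and 3.13). Of the 19 Ccnd3 regions 6 were held by both DP lists and by no DN list (DP-only), 5 of them inside the gene, and 1 region inside the gene (47541901 to 47542950) was held by all 4 lists. The DP-only regions took in both starts that RefSeq lists: 47504401 to 47505300 over the outer start, which was the only DP-only gene-end region of any member, and 47593151 to 47593750 over the inner start, 88416 bp farther in. Among all genes 10.8% had a DP-only gene-end region. A further 6 Ccnd3 regions were held by every list except DN 2. Among them was 47531151 to 47531950 inside the gene, to which both DP lists gave the lowest p-value of the deposited lists, 1e-12. The window holds 6 other coding genes, and 2 of the regions that DN 2 lacked lay at ends of the neighbours Taf8 (221 bp) and Bysl (42 bp).

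Ccnd2 (chromosome 6, 127125162 to 127152188), the cyclin D2 gene, had 3 peaks in each DN list and 7 in each DP list. The groups did not overlap and the lists of a group did not differ, but scaled to list length DP 2 (0.995 per 10000) came close to DN 2 (0.906). Both DP-only regions of Ccnd2 lay inside the gene, at 127142001 to 127142750 and 127147601 to 127148150, and each DP list held 2 peaks in the first. The region past the upper end of the span (127152351 to 127152900), 437 bp away by its midpoint, was held by DN 1, DN 2 and DP 1 and was absent from DP 2, the longest list. All 4 lists held a region 26012 bp beyond the upper end (127177901 to 127178500) and another at the end of the neighbouring gene Tigar (127109251 to 127110050). The interior of Ccnd2 was thus where both DP lists differed from both DN lists. Its end was held by both DN lists but only 1 of the DP lists, and it was DN-only when DP 1 was left out.

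Cdk6 (chromosome 5, 3341004 to 3531008), 1 of the kinases that D cyclins activate, is the longest member, with a span of 190005 bp. DN 1 held 6 peaks, DN 2 held 2, DP 1 held 11 and DP 2 held 10. The DP lists were higher, yet per 10000 peaks DN 1 (1.55) exceeded DP 2 (1.42), so the groups overlapped on that scale. All 3 DP-only regions lay inside the gene, within 17922 bp of its lower end: 3341901 to 3342500, 3343651 to 3344800 over the RefSeq start, where the DP lists held 2 and 3 peaks, and 3358701 to 3359150. The region at the outer end of the span (3341151 to 3341900) was present in DN 2 and in each DP list. No Cdk6 region was held by all 4 lists, and 9 of the 16 (56.25%) came from a single list. Of all regions within 50 kb of a coding gene 62.2% did. No other member had as many single-list regions, but by share Cdk4 (7 of 12, 58.3%) and Cdkn1a (3 of 3) had more.

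Cdk4 (chromosome 10, 127063535 to 127067288), the other D cyclin kinase, had 4 peaks in each DN list, 6 in DP 1 and 10 in DP 2. The groups did not overlap, also per 10000 peaks (1.03 and 1.21 against 1.51 and 1.42), although both sets of values lay close together. The start of Cdk4, with its 4 E-box matches, was held by every list (127063001 to 127064050), with 1 peak in DN 1, 3 in DN 2 and 1 in each DP list. Its window is crowded, with 9 other coding genes, and 6 of its 12 regions lay within 1 kb of an end of one of them. Once distal peaks at ends of other genes were left out, the lists held 2, 4, 4 and 4 peaks, and the groups overlapped. Both DP-only regions (127058051 to 127058600 and 127060101 to 127060750) lay 1859 and 241 bp from an end of the neighbour Marchf9.

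Mycn (chromosome 12, 12936093 to 12941836), a MYC family factor that drives growth and proliferation, was the member whose start went the other way. DN 1 held 4 peaks, DN 2 held 2 and each DP list held 4, so the groups overlapped. The region over the Mycn start (12941551 to 12942100) was held by both DN lists, with 1 and 2 peaks, and by neither DP list. It was the only DN-only region among the 97, and 0.923% of all genes had a DN-only gene-end region. Its deposited p-values were 1.68e-05 in DN 1 and 0.000540 in DN 2, and the latter is the highest value in the DN 2 list. A neighbouring region outside the gene (12942251 to 12942900), 739 bp from its end, was missing from DN 2 alone, and a region inside the gene (12940501 to 12940850) was DP-only. Accessible DNA was therefore called on both sides of the start in DP lists, and over the start itself in DN lists. The class of the start region rests on that split. When peaks within 250 bp were also merged, the start and the neighbour became 1 region held by all 4 lists, and among the peaks of each list with lower p-values (0.5 of the list) it was not DN-only. All 5 Mycn regions lay inside the gene or within 739 bp of an end, and none was found in the rest of its window, which holds no other coding gene.

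**Figure D3:**
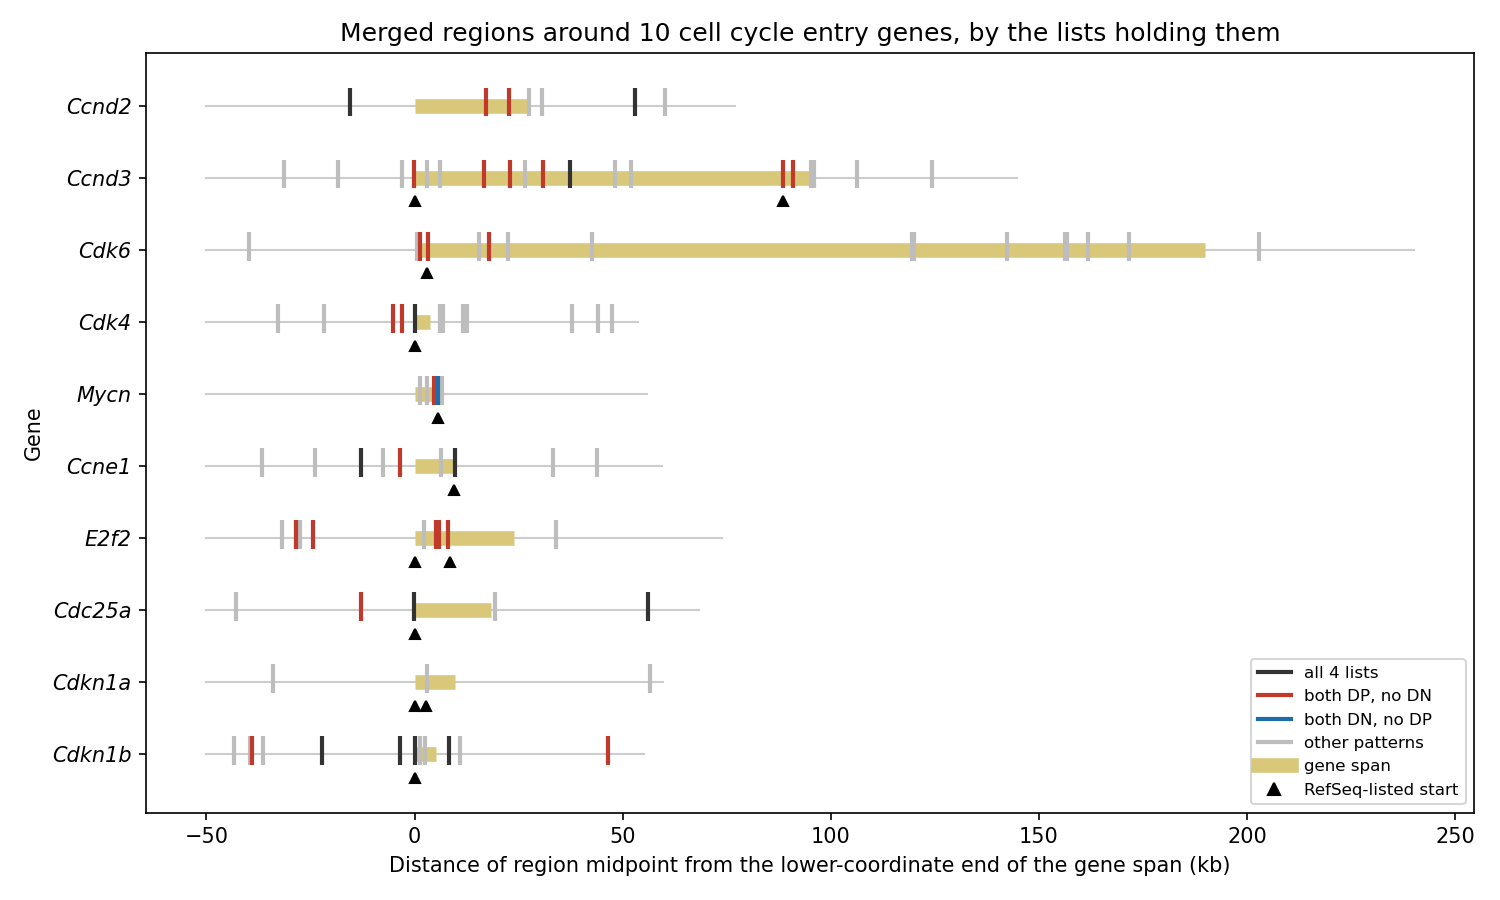
Midpoints of the 97 merged regions, in kb from the lower-coordinate end of each gene span (tan bars), with 1 row per gene and windows of 50 kb on each side (thin lines). Triangles are RefSeq-listed starts, red ticks the 23 DP-only regions, the blue tick the 1 DN-only region at the Mycn start, black ticks the 12 regions of all 4 lists and grey ticks the remaining patterns.

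E2f2 (chromosome 4, 136172274 to 136196057), 1 of the E2F factors that the retinoblastoma protein restrains, had 0 peaks in both DN lists, 5 in DP 1 and 12 in DP 2. No peak was called in DN cells anywhere in its window of 123784 bp. E2f2 and Cdkn1a shared this pattern of 0 peaks in both DN lists and at least 1 in both DP lists, which 5.69% of all genes had. Of 9 E2f2 regions 5 were DP-only and the remaining 4 came from DP 2 alone. The gene had no gene-end region, since its outer start was empty in every list. Inside the gene, 136179851 to 136180850 covered the inner start, with 1 peak in DP 1 and 2 in DP 2, and 136177101 to 136177650 and 136177851 to 136178200 were DP-only as well. The other 2 DP-only regions (136143401 to 136144150 and 136147501 to 136148300) lay at or near Id3, the gene of an inhibitor of E proteins, and not at E2f2.

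Ccne1 (chromosome 7, 38097984 to 38107490) encodes cyclin E1, which acts after the D cyclins. DN 1 held 6 peaks, DN 2 held 3, DP 1 held 7 and DP 2 held 8. The DP lists were higher by 1 peak at the closest, and per 10000 peaks the groups overlapped. Its start was held by all 4 lists (38107251 to 38108050), with 1, 2, 1 and 1 peaks. A region 12958 bp beyond the other end of the gene (38084601 to 38085450) was also held by all 4 and had a p-value of 1e-12 in DN 1 and in both DP lists. It was the only member region with that value in a DN list. The single DP-only region (38094251 to 38094750) lay between it and the gene.

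Cdc25a (chromosome 9, 109875518 to 109893895) had 3 peaks in each DN list, 5 in DP 1 and 4 in DP 2, the second smallest difference of any member. Per 10000 peaks DP 2 (0.568) fell below both DN lists, so the groups overlapped. The start region (109874951 to 109875750) was held by all 4 lists with 1 peak each, and both DP lists gave it a p-value of 1e-12. All 4 lists also held a region 199 bp from a listed start of the neighbour Map4 (109931101 to 109932050). The 1 DP-only region (109862551 to 109862850) lay 12817 bp outside the gene. The accessible start was thus common to both groups at Cdc25a, Ccne1 and Cdk4.

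The inhibitors differed from each other. Cdkn1b (chromosome 6, 134920401 to 134925525), the p27 gene, had 8 peaks in DN 1, 4 in DN 2, 10 in DP 1 and 13 in DP 2, with overlap between groups per 10000 peaks (2.06 and 1.21 against 2.52 and 1.85). It had 4 regions held by all lists, more than any other member: at its start (134920001 to 134920950), 3400 bp outside it (134916451 to 134917550), 3225 bp past the other end (134928251 to 134929250) near the start of the RNA gene Lockd, and at the end of Gpr19 (134897601 to 134898750). Its 2 DP-only regions lay far out in the window, 38975 and 41350 bp from its ends, and the first of them was 845 bp from an end of Crebl2.

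Cdkn1a (chromosome 17, 29090979 to 29100722), the p21 gene, had 0 peaks in both DN lists and 2 in each DP list. The groups did not overlap, but the DP lists did not share a single region: the peaks of DP 1 lay at the inner start (29093701 to 29094150) and those of DP 2 34103 and 46728 bp from the gene. All 3 of its regions therefore came from 1 list. In a window of 10 kb on each side DP 2 held 0 peaks, and among the peaks with lower p-values (0.5 of each list) DP 1 did, so the groups overlapped under both settings. Cdkn1a was the only member with neither a region of all 4 lists nor a DP-only region.

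By class, 12 of the 97 regions were held by all 4 lists, 23 were DP-only, 1 was DN-only, 21 were in exactly 3 lists and 38 in 1. These are 12.4%, 23.7%, 1.03%, 21.6% and 39.2% of the member regions. Over all regions in the genome, 7.39% were held by all lists, 7.44% were DP-only and 2.51% DN-only. A further 7.24% were in exactly 3 lists and 71.8% in 1. Member regions lie within 50 kb of a coding gene by rule. Of all 69522 such regions, 10.5% were held by all lists, 10.2% were DP-only and 2.71% DN-only. Another 10.04% were in exactly 3 lists and 62.2% in 1. The member share held by all lists was thus near that of regions close to genes. A DP-only region was present in the window of 9 of the 10 genes (44.9% of all genes), and a region of all 4 lists in that of 6 (49.1%). Ccnd3 with 6 and E2f2 with 5 had the most DP-only regions, and 2.63% of all genes had 5 or more, a threshold chosen after the values were seen. A gene-end region of any kind was present at 8 members (54.9% of all genes), and at 4 members, Cdk4, Ccne1, Cdc25a and Cdkn1b, 1 was held by all lists (21.5% of all genes). Of the 21 regions in 3 lists, 17 were missing from DN 2 alone, the shortest list. Over the genome this pattern was also the most common of its kind, with 5249 of 7791 regions in 3 lists. The class counts moved with single lists: by the remaining lists, DP-only regions numbered 40 without DN 1 and 44 without DP 1, and regions of every list 29 without DN 2. A class set by fewer lists has a looser rule, which favours higher counts. DN-only regions numbered 3 without DN 1, 6 without DN 2 and 2 without DP 1, and members with a DP-only gene-end region 2 without DN 1 or without DN 2. With lists of the shortest length 17 regions were DP-only.

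Away from every coding gene end the share of DP-only regions was higher around the members than around genes at large. Of 70 such member regions 19 (27.1%) were DP-only and 6 (8.57%) were held by all lists. Ends are those of spans, so the 19 took in regions over listed starts of Ccnd3, Cdk6 and E2f2 (17, 333 and 432 bp by midpoint). Another Cdk6 region lay 52 bp from a listed start of Gm36470. Ccnd3 and E2f2 gave 5 distal DP-only regions each, and the E2f2 count takes in the region at the end of Id3, which is not among the 19. Of 57224 regions within 50 kb of any coding gene and more than 1 kb from every gene end, 8.74% were DP-only, 5.58% were held by all lists and 70.3% came from 1 list, against 42.9% for the members. Of the 70 member regions, 49 lay inside the span of any coding gene, of which 15 (30.6%) were DP-only, and 21 lay outside, of which 4 were. Of all 57224, the DP-only shares were 8.31% inside and 9.64% outside coding genes. Within 1 kb of a coding gene end, 27 member regions gave 14.8% DP-only and 22.2% in all lists, near or below the 17.2% and 33.4% of all 12298 gene-end regions. Member regions of all lists had a median width of 950 bp, DP-only ones of 600 bp and single-list ones of 400 bp, compared with 850, 600 and 350 bp genome-wide. Some sites lie near the limit between classes: 6 distal regions had their midpoint 1055 to 1286 bp from an end of their gene, and the gene-end region nearest the limit lay at 739 bp.

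**Figure D4:**
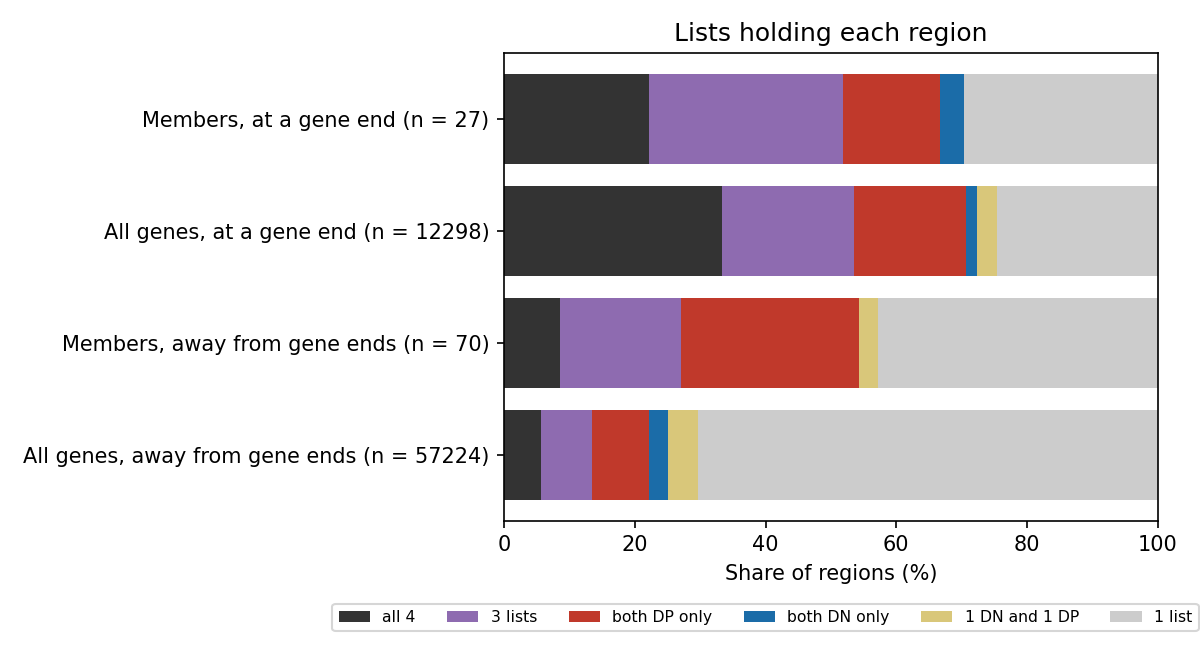
Share of merged regions, in percent, by the lists that held them, for the 27 member regions within 1 kb of any coding gene end, all 12298 such regions, the 70 member regions farther away, and all 57224 such regions within 50 kb of a coding gene. The DP-only share (red) away from gene ends was 27.1% around the members and 8.74% around all genes. Ends are those of gene spans, so regions over RefSeq-listed starts inside a span count as away from them.

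Member peaks were less often at the highest p-value of their list than peaks at large, in all 4 lists. The shares were 23.8% of member peaks against 35.4% of the list in DN 1, 34.8% against 44.2% in DN 2, 18.4% against 29.1% in DP 1 and 23.9% against 38.5% in DP 2. The lowest p-value, 1e-12, was given to 8 of 76 member peaks in DP 1 (10.5%, with 6.40% of the whole list) and to 7 of 92 in DP 2 (7.61%, with 4.45%). In DN 1 it was 1 of 42 (2.38%, with 3.56%), and in DN 2 0 of 23, with 2.19% of the list. These p-values are the authors' own, and they are tied at few distinct values. The whole lists also hold peaks more than 50 kb from any coding gene, which the member rule leaves out. Whether peaks near genes in general share these p-values was not tested.

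For 44 other cell cycle genes, 26 (59.1%) had more peaks in both DP lists, 1 (Mcm3) had more in both DN lists and 17 overlapped. Of all genes 41.8% had more in both DP lists and 3.60% in both DN lists. The median difference of the 44 was 2.5 peaks. Per 10000 peaks 16 of the 44 were higher in DP and 7 in DN, while 5 and 0 of the 10 members were. Over all genes these shares were 29.6% and 16.1%. At their gene ends, 29 of the 44 (65.9%) had a region of all 4 lists and 5 had a DP-only region, compared with 4 and 1 of the 10 members. Among all genes 21.5% had the first and 10.8% the second, so the DP-only count of the 44 was near the share of all genes. Btg2, an antiproliferative gene, had the largest difference with 3 and 1 peaks in DN against 13 and 15 in DP. Cdkn2d, the p19 inhibitor of CDK4 and CDK6, had 5 and 1 against 10 and 14, and Cdc6, which loads the replicative helicase, had 1 and 0 against 8 and 7. At the other end stood the helicase subunits Mcm3, with 2 and 3 peaks in DN against 1 in each DP list, and Mcm5, with 6 and 3 against 3 in each. Ccng1, cyclin G1, had 4 and 5 against 4 and 3. Windows of neighbouring genes in this list, such as Cdkn2a and Cdkn2b, share peaks.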

How the data were processed

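Each deposited list gives chromosome, start, end and a p-value per peak as the authors' peak caller wrote it, 1 list per sample. The build mm10 and the tools Bowtie2 and Picard stand in the submitters' processing notes, without versions or roles. The caller PeakDEck is known only from the names of the lists; how it was set, and which reads were kept, is not given in the sources used here. The deposited p-values ran from 1e-12 to 0.000487 to 0.000890, in 24 to 39 distinct values per list, and were used only to rank peaks within a list.

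Peaks on chromosomes 1 to 19, X and Y sharing at least 1 bp were merged. A region belongs to a gene by its midpoint, within 50 kb. Gene spans and promoters came from RefSeq GRCm38 tables without a genome sequence; 9 of 10 members matched a promoter. Members, lists and motifs were chosen with earlier results of these data known. All 10 members are named, and of 44 other cell cycle genes the 3 with the largest and the 3 with the smallest DP minus DN difference, ties by symbol. Alternatives covered flank, list length, overlap, gene-end distance, left-out lists, other gene ends and the replicate number. Region calling was tested on simulated data. No list copied another (1.33 to 6.25% identical peaks). Scripts ran under Python 3.11.15 with pandas 2.3.3 and numpy 2.4.6 for tables, scipy 1.17.1 for the exact test and matplotlib 3.10.9 for plots.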

Additional observations from a re-analysis of the deposited data

How the results depend on the processing

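The 9 members with more peaks in both DP lists numbered 5 with flanks of 10 kb (27.0% of all genes), where Cdk4, Cdc25a, Cdkn1a and Cdkn1b overlapped, and 5 per 10000 peaks (chosen after seeing the data). They numbered 7 with lists of the shortest length (35.6% of all genes) and 8 among the peaks with lower p-values (0.5 of each list, 37.7%). Without ends of other genes they numbered 7, and with a list left out 9 to 10. For both of these the share of all genes was not counted. The rule is looser with a list left out, so that count could not fall below 9. Only the Mycn difference changed sign, to -0.0295 per 10000 peaks. Regions of all 4 lists numbered 7 with flanks of 10 kb and 12 to 29 with a list left out. DP-only regions numbered 26 to 44, and DN-only regions 1 to 6, with a list left out. A list left out loosens the class rules, which favours higher counts. The peaks with lower p-values held 0 DN-only regions. Members with a DP-only gene-end region numbered 1 to 2 with a list left out, 2 among the peaks with lower p-values, 3 at 2500 bp and, chosen after seeing the data, 3 when RefSeq starts counted as ends (Ccnd3, Cdk6 and E2f2). Merging within 250 bp, also chosen after seeing the data, left 1 DN-only region, at Cdk4 and no longer at Mycn, and 5 members with a gene-end region of all lists. Of 80 member differences in peaks under the alternatives, 66 moved by no more than the spread between lists and 14 by more. Those with a list left out could not move by more, since with 2 lists a group the shift is part of that spread. All 14 came from the other settings (flank, list length, lower p-values and other gene ends), so the 66 overstate how stable the differences were. Per 10000 peaks, a different unit, only the sign was compared, and 9 of 10 kept it. Members required to exceed within each pair of equal replicate numbers (the replicate block) numbered 9, a count that could not fall below the 9 of the main rule. The pairing rests only on the number: deviations of equally numbered lists correlated at 0.206 over 20489 genes. Depth is unknown, so an absent peak sets no upper limit.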
